A study of Camellia sinensis with 15 samples.

Results

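The 100 transcripts with the highest abundance in untreated tea roots were examined across Cd and As treatments. They were the 100 genes with the highest mean FPKM over the 3 untreated libraries (CK), out of 59128 genes in the files. FPKM is the number of sequenced fragments per kilobase of gene, scaled to the fragments of the library, so levels of genes of different length can be set side by side. A gene that the study names singly would have been left out, but 0 of those 22 genes reached the list, and the highest of them held rank 1056. Because CK values chose the members, the CK levels and every comparison with CK are given as description. The comparisons between treated groups take no CK level into their fold changes, and these were tested. Their p-values rest on a spread between libraries estimated over all 5 groups, CK included.

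Roots of wild-type 'Fuding Dabaicha' seedlings (Camellia sinensis, 2 years old) were sequenced. Cd1 roots came from plants that had received 400 mL of a Cd solution of 120 mg/kg for 10 d, and Cd2 roots from plants so treated for 15 d. As1 and As2 roots had the same volume and concentration of As for 10 d and 15 d, and CK plants were not treated. The study's methods give the As as As (V), and its results as As (II). The times are those of the study's methods, whereas all 15 labels, those of CK included, state day 15. CK was the only untreated group, and the methods give no day for it. Length of treatment therefore cannot be told apart from sampling day or plant age, between the treated groups or relative to CK. The methods speak of 3 replicates but do not say for the libraries whether these were separate plants, so the p-values measure only the spread between libraries. The library labelled Cd1 replicate 3 held the same values as Cd2 replicate 1, and its header names that library. It was counted once, as Cd2 replicate 1, which left 14 libraries, 2 in Cd1 and 3 in each of Cd2, As1, As2 and CK. Whole fragments recovered from the FPKM values came to between 10483112 and 13846717 per library. Only 5 of the 1400 values of the members rested on fewer than 100 fragments, and the lowest rested on 1.

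In most plant tissues a small set of genes supplies a large part of the messenger RNA. Such genes commonly include those for ribosomal proteins, translation factors, histones, water channels, small metal-binding proteins and defence proteins. Cd and As are not nutrients, and roots are the first organ to meet them in soil. Which of these roles the members play could not be read here, because neither the files nor the reference at hand pair the identifiers with gene names, products or positions. For the same reason the tissue label could not be set against root markers. The members are therefore given by identifier, and no role is assigned to any of them.

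The members spanned a wide range of abundance in CK. The mean ran between 572 FPKM for CSS0043717 at rank 100 and 9160.3 FPKM for CSS0020810 at rank 1, a 16.0-fold range. The median of the members was 809 FPKM, against 6.04 FPKM over the 33109 genes that passed the filter of at least 1 FPKM in at least 3 libraries. All 100 members passed that filter. In CK, 37 members exceeded 1000 FPKM and 11 exceeded 2000 FPKM. The limit itself fell within a dense stretch of the ranking: the gene at rank 98 (583 FPKM), CSS0020373 (574 FPKM) and CSS0043717 (572 FPKM) lay just inside, and CSS0007470 (571 FPKM), CSS0001641 (568 FPKM) and CSS0044578 (568 FPKM) just outside. These differences were far smaller than the spread between CK libraries.

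**Figure D1:**
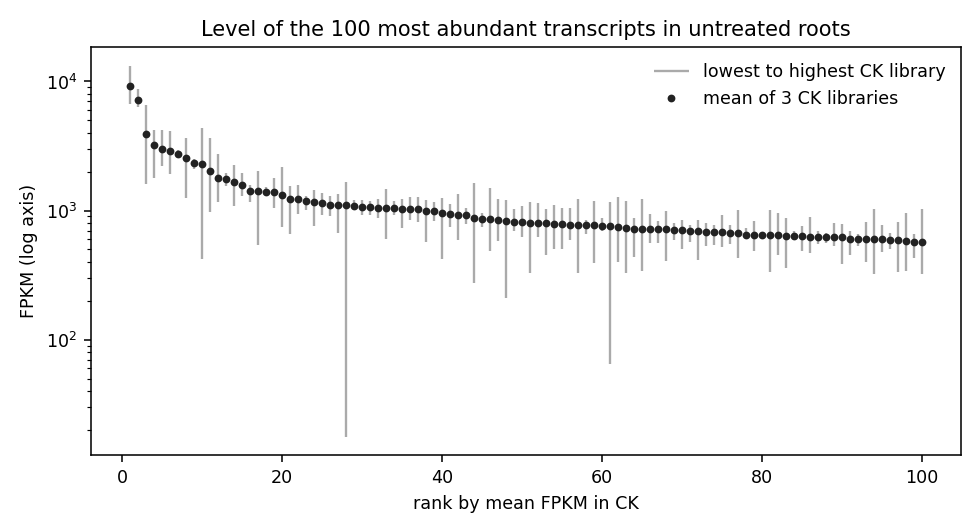
FPKM on a log axis against rank for the 100 members; points are means of the 3 CK libraries and grey lines run between the lowest and the highest CK library. The means fall steeply over the first ranks, with 11 members above 2000 FPKM, and then flatten, while a few lines reach far below their means.

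Of the members, 93 carried CSS identifiers and 7 carried the files' other kind of identifier, for transcripts outside that set. These made up 7.0% of the members, against 14.55% of all genes in the files and 16.14% of the genes tested. The gene lengths implied by the values had a median of 963 bp in the members (quartiles 656 and 1447 bp), against 1207 bp in the genes tested (quartiles 674 and 1877 bp). The shortest member was 159 bp and the longest 4074 bp, and 68 members were shorter than the median of the genes tested. Under 500 bp were 11 members, beside 16.2% of the genes tested. FPKM divides by length, so length entered the choice of members. Ranked by fragments in CK instead, 63 members stayed among the first 100, and that list had a median length of 1661 bp.

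The members held between 12.37% and 17.22% of the summed FPKM of a library. The share was 16.46% and 13.47% in the Cd1 libraries and 12.37%, 13.61% and 14.4% in the Cd2 libraries. It was 13.75%, 16.96% and 13.28% in As1, 14.01%, 15.64% and 17.22% in As2, and 17.15%, 14.78% and 13.2% in CK. The group means were 14.96% ± 2.11 in Cd1 (SD, n = 2), 13.46% ± 1.02 in Cd2, 14.66% ± 2.00 in As1, 15.62% ± 1.61 in As2 and 15.04% ± 1.99 in CK (SD, n = 3 each). Every treated group overlapped CK, and the means differed from that of CK by less than the SD of the CK libraries. The mean gene length per fragment also differed between libraries, from 1741.5 bp in As1 replicate 2 to 2019.0 bp in Cd1 replicate 2. In CK it was 1808.3, 1841.1 and 1927.3 bp, the reverse of the order of the shares. In As2, replicate 3 had a higher share than replicate 2 but also a longer mean (1852.1 against 1832.3 bp). Whether length moved the shares was not tested. In bulk roots, fewer cells of a type and less RNA per cell cannot be told apart, and a share says nothing of the total RNA of a root.

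By fragments, which favour long genes, the members held less: 10.91% ± 1.39 in Cd1 (SD, n = 2), 10.72% ± 0.807 in Cd2, 11.49% ± 1.69 in As1, 11.61% ± 1.17 in As2 and 11.95% ± 1.35 in CK (SD, n = 3 each). Every treated group overlapped CK here too. The first 5 genes alone took 3.77% of the summed FPKM in Cd1 and 2.51% in Cd2, next to 3.56% in As1, 3.90% in As2 and 3.33% in CK. The 100 highest genes of each library's own ranking held 17.44% ± 3.28 in Cd1 (SD, n = 2), 14.3% ± 0.757 in Cd2, 16.59% ± 1.92 in As1, 17.38% ± 1.90 in As2 and 15.64% ± 1.94 in CK (SD, n = 3 each). These lists were chosen on the same libraries that they describe.

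**Figure D2:**
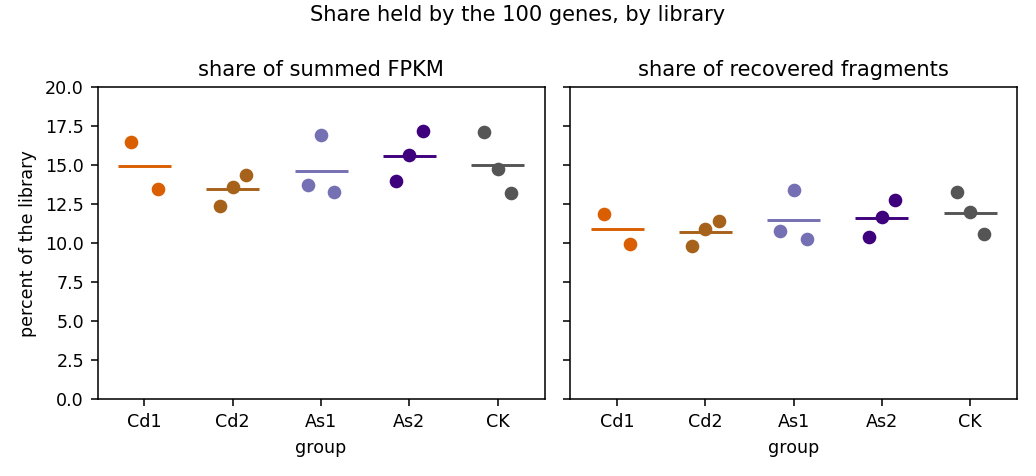
Percent of each library held by the 100 members, by group (Cd1, Cd2, As1, As2, CK), as a share of summed FPKM (left) and of recovered fragments (right); points are libraries and lines are group means. The groups overlap in both panels, with libraries between 12.37% and 17.22% by FPKM and between 9.84% and 13.42% by fragments.

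The top of the ranking was held by the same gene throughout: CSS0020810 (615 bp) was the highest gene in all 14 libraries and took between 0.741% and 1.88% of the summed FPKM. It reached 12180 and 5527 FPKM in Cd1, 4961, 6418 and 7195 FPKM in Cd2, 8201, 16048 and 7840 FPKM in As1, 8198, 11869 and 15324 FPKM in As2, and 13199, 7584 and 6698 FPKM in CK. All 3 Cd2 libraries lay below the CK mean, while the other groups held libraries on both sides of it. CSS0041171 (623 bp), at rank 2, had 7331 and 4684 FPKM in Cd1, 4333, 4966 and 5926 FPKM in Cd2, 5276, 9685 and 4343 FPKM in As1, 7039, 9830 and 8677 FPKM in As2, and 8781, 6288 and 6670 FPKM in CK. Its Cd2 libraries lay below all 3 CK libraries, and its As2 libraries lay above 2 of them. In Cd2 vs. As2, the log2 fold change was -0.90 ± 0.520 (SE) for CSS0020810 (limma adjusted p = 0.514) and -0.74 ± 0.427 for CSS0041171 (limma adjusted p = 0.511). The Cd2 and As2 libraries of both genes did not overlap, but neither difference passed the threshold.

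The next 3 genes of the ranking varied more. The third gene (691 bp), which has no CSS identifier, had 5022 and 4695 FPKM in Cd1, 2203, 2117 and 2963 FPKM in Cd2, 1567, 3732 and 705 FPKM in As1, 2508, 1607 and 2257 FPKM in As2, and 6632, 3476 and 1619 FPKM in CK. Its CK libraries alone spanned most of the range of the treated groups. CSS0042430 (642 bp) had 11890 and 3668 FPKM in Cd1, 1692, 2073 and 2990 FPKM in Cd2, 6565, 9228 and 6027 FPKM in As1, 3104, 4201 and 9465 FPKM in As2, and 4238, 2481 and 2198 FPKM in CK. The As1 libraries all lay above the CK libraries, and the Cd2 libraries overlapped them. Its log2 fold change was -1.59 in Cd2 vs. Cd1 (limma adjusted p = 0.225) and did not pass the threshold.

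CSS0032777 (480 bp), at rank 4 in CK, stood apart from the rest of the first 5 genes in Cd1. It had 451 and 302 FPKM in Cd1, 1020, 1807 and 2769 FPKM in Cd2, 2316, 2784 and 3920 FPKM in As1, 1281, 5860 and 1045 FPKM in As2, and 1785, 3631 and 4198 FPKM in CK. Both Cd1 libraries lay below each of the other 12 libraries, as they also did for CSS0041670 and CSS0007050 at CK ranks 7 and 8. CSS0032777 ranked at 165 in Cd1, but at 10 in Cd2, at 5 in As1 and at 7 in As2. In Cd1 vs. As1 it fell by 2.99 ± 0.673 (SE) on the log2 scale (limma adjusted p = 0.0448). This call was lost without any 1 of CK replicates 2 and 3, Cd1 replicates 1 and 2, the 3 Cd2 replicates or the 3 As1 replicates, at adjusted p between 0.0501 and 0.211, with log2 fold changes between -3.28 and -2.70. It was also lost with no filter on low FPKM (adjusted p = 0.0875), quantile normalization (0.0629), the replicate number as a block (0.0735), and the identical library left out (0.0538) or kept (0.051) under both labels.

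The make-up of the most abundant set differed between groups. Of the 100 members, 62 were also among the 100 highest genes of Cd1, 73 among those of Cd2, 68 of As1 and 72 of As2. In all 4 treated groups 45 members kept such a place, and 9 kept it in none. Of the first 20 members, 18 kept it in all 4, the exceptions being CSS0032777 and CSS0048610. A rank beyond 300 was reached by 14 members in Cd1 and 4 in Cd2, and by 12 in As1 and 3 in As2. A mean more than 2-fold below that of CK was found for 31 members in Cd1 and 10 in Cd2, and for 19 in As1 and 9 in As2. The genes that took the vacant places stood at CK ranks of up to 1666 in Cd1 and 749 in Cd2, and up to 406 in As1 and 712 in As2. Some loss of rank is built into a list chosen on CK, and the values near the limit were close together.

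Changes were measured on the scale log2(FPKM + 1) and fitted with limma over all 33109 genes; a DEG had an adjusted p (FDR) under 0.05 and an absolute log2 fold change over 1. In Cd1 vs. CK, 0 members were higher and 13 lower by that rule, where 0.453% of all tested genes were called higher and 2.73% lower (3.18% together). At an unadjusted p under 0.05 were 36 members, beside 19.9% of all genes. The median log2 fold change was -0.38 in the members and 0.01 in all tested genes, and 39 members passed a 2-fold change (7 higher, 32 lower), beside 13.0% of all genes. With quantile normalization the median of all genes moved to 0.11 and that of the members to -0.22. That setting called 3 members higher and 12 lower, with no share of all genes set beside these. Without CK replicate 2 or CK replicate 3 the count was 6, without Cd1 replicate 1 it was 4 and without Cd1 replicate 2 it was 3. In Cd2 vs. CK, limma called 0 members (0.0332% of all genes), with 17 members at an unadjusted p under 0.05, beside 12.5% of all genes, and 7 beyond 2-fold, all lower, beside 6.37%.

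In As1 vs. CK, 1 member was higher and 4 were lower, beside 0.338% of all genes called higher and 1.28% called lower (1.62% together). At an unadjusted p under 0.05 were 28 members, beside 18.6% of all genes. The members beyond 2-fold numbered 25 (5 higher, 20 lower), beside 8.78% of all genes, although the median was near 0, at 0.03, and turned to -0.10 with quantile normalization. The count was 3 without CK replicate 1, 2 without CK replicate 3, As1 replicate 1 or As1 replicate 3, and it was 9 when As1 replicate 2 was left out. In As2 vs. CK, limma called 0 members (0.0151% of all genes), with 18 at an unadjusted p under 0.05, beside 9.04% of all genes, and 13 beyond 2-fold (2 higher, 11 lower), beside 4.60%. Nothing is read from these counts, since high CK values chose the members.

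How far the choice of list moves such a median is visible when the list is chosen on another group. The 100 highest genes of Cd1 had a median log2 fold change of 0.25 in Cd1 vs. CK, against -0.38 for the list chosen on CK. For Cd2 vs. CK the 2 medians were -0.07 and -0.34 (the list chosen on CK had -0.05 with quantile normalization), for As1 vs. CK 0.43 and 0.03, and for As2 vs. CK 0.20 and -0.18. The sign differed with the list in Cd1 and As2 vs. CK. The next 100 genes of the CK ranking (ranks 101 to 200), which were not members, had 14 DEGs after 10 d of Cd and 6 after 10 d of As relative to CK, and 0 after 15 d of either. Over 12771 genes with a mean of at least 10 FPKM, where the added 1 FPKM matters little, the share called relative to CK was 5.25% for Cd1, 0.0470% for Cd2, 2.19% for As1 and 0.0313% for As2.

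**Figure D3:**
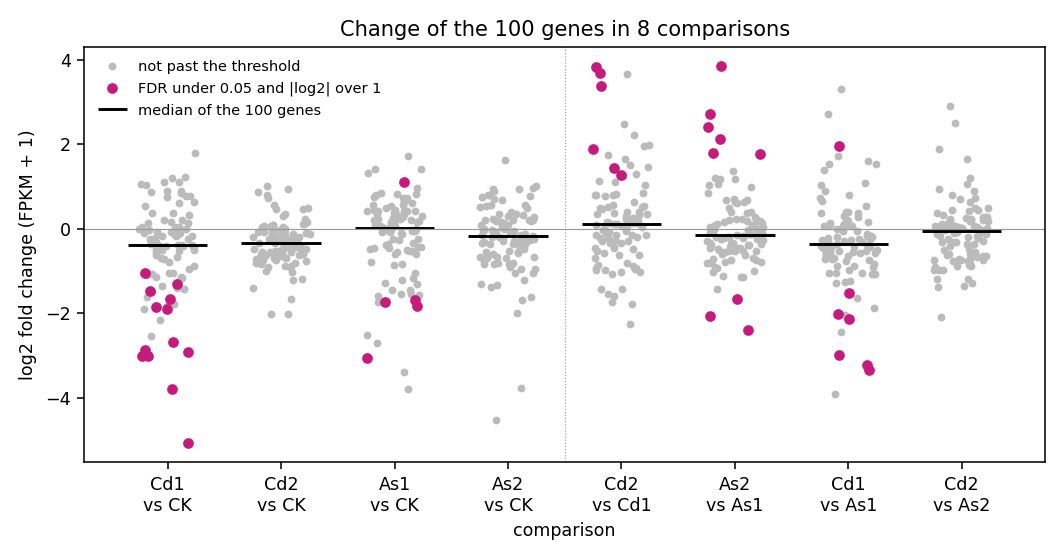
Log2 fold change on the log2(FPKM + 1) scale of the 100 members in 8 comparisons; grey points did not pass the threshold, coloured points passed FDR 0.05 and an absolute log2 fold change of 1, and black lines are medians. The 4 comparisons left of the dotted line share CK with the choice of members; right of it, 6 members were called in Cd2 vs. Cd1, 9 in As2 vs. As1, 7 in Cd1 vs. As1 and 0 in Cd2 vs. As2.

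CSS0001622 and CSS0022759 are shown for their values in Cd1, where their log2 fold changes against CK were the lowest among the members called, as a description on the CK values that chose the list. CSS0001622 (660 bp) had 18.1 and 50.01 FPKM in Cd1, 181, 377 and 905 FPKM in Cd2, 310.3, 669 and 486 FPKM in As1, 171, 2845 and 133 FPKM in As2, and 671, 1338 and 1305 FPKM in CK. Both Cd1 libraries lay below all others, its rank in Cd1 was 4427, and its log2 fold change in Cd1 vs. CK was -5.08 ± 1.06 (SE). That call shares its CK values with the choice of members, so no test is read from it. It was lost without CK replicate 2, CK replicate 3 or either Cd1 replicate, and with the identical library kept under both labels. The direct comparisons did not pass the threshold: the log2 fold change was 3.67 in Cd2 vs. Cd1 (limma adjusted p = 0.115) and -3.90 in Cd1 vs. As1 (limma adjusted p = 0.0798). The As2 libraries of this gene differed widely, with replicate 2 far above the other 2.

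CSS0022759 (713 bp) had 61.1 and 84.2 FPKM in Cd1, 401, 829 and 1310 FPKM in Cd2, 277, 434 and 227 FPKM in As1, 395, 2203 and 282 FPKM in As2, and 727, 1221 and 1145 FPKM in CK. The Cd1 libraries again lay below all others, and As2 replicate 2 was again the highest library. The call in Cd1 vs. CK likewise shares its CK values with the choice, and no test is read from it. It was lost without CK replicate 3 or either Cd1 replicate, and with the identical library kept under both labels. In Cd2 vs. Cd1 the gene was higher by 3.38 ± 0.713 (SE) on the log2 scale (limma adjusted p = 0.0345). The call was lost without Cd1 replicate 1 (adjusted p = 0.225), Cd1 replicate 2 (0.0912), Cd2 replicate 2 (0.101), Cd2 replicate 3 (0.12) or As1 replicate 1 (0.0519), with log2 fold changes between 2.99 and 3.84. It was also lost with no filter on low FPKM (0.0642) and with the identical library kept under both labels (0.935).

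In Cd2 vs. Cd1, the question was whether Cd roots at 15 d differed from those at 10 d. Of the members, 6 were higher and 0 lower at 15 d, beside 1.21% of all tested genes called higher and 0.320% called lower (1.53% together). At an unadjusted p under 0.05 were 34 members, beside 14.6% of all genes. Beyond 2-fold were 30 members (20 higher, 10 lower), beside 9.49% of all genes, and the median was 0.12 in the members and 0.02 in all genes. Quantile normalization called 9 members higher and 2 lower, with no share of all genes set beside these, and gave medians of 0.20 and -0.04. The count was 2 without Cd1 replicate 1, Cd1 replicate 2, Cd2 replicate 2 or Cd2 replicate 3. The next 100 genes of the CK ranking held 6 DEGs in this comparison, and the genes with a mean of at least 10 FPKM a share of 2.72%.

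In As2 vs. As1, 6 members were higher and 3 lower at 15 d, beside 1.56% of all tested genes called higher and 0.544% called lower (2.10% together). At an unadjusted p under 0.05 were 29 members, beside 18.1% of all genes. Beyond 2-fold were 20 members (12 higher, 8 lower), beside 7.90% of all genes, and the median was -0.15 in the members and 0.04 in all genes, or -0.07 and -0.03 with quantile normalization. The count was 5 without As1 replicate 1 and 3 without As1 replicate 3 or As2 replicate 1. The next 100 genes of the CK ranking held 10 DEGs, and the genes with a mean of at least 10 FPKM a share of 3.32%. The Cd and As time comparisons share no library, and 2 members were called in both, which is 33.3% of the 6 for Cd and 22.2% of the 9 for As. Over all tested genes the lists of 508 and 696 DEGs shared 175 genes, or 34.4% and 25.1% of each list, so the shares of the members lay near those of all genes.

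These 2 members, CSS0047143 and CSS0006794, were low at 10 d of both metals and high at 15 d. Without untreated roots of each time, length of treatment and sampling day cannot be told apart here. CSS0047143 (1193 bp) had 197 and 121 FPKM in Cd1, 1528, 2567 and 1967 FPKM in Cd2, 193, 133 and 64.5 FPKM in As1, 2545, 2073 and 951 FPKM in As2, and 1463, 607 and 1086 FPKM in CK. The 5 libraries of 10 d lay below all 9 others, and the Cd2 libraries lay above all 3 CK libraries. It rose by 3.67 ± 0.524 (SE) on the log2 scale in Cd2 vs. Cd1 (limma adjusted p = 0.00528) and by 3.84 ± 0.469 in As2 vs. As1 (limma adjusted p = 0.00117). Its log2 fold changes against CK were -2.67 for Cd1, 1.00 for Cd2, -3.05 for As1 and 0.79 for As2.

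CSS0006794 (708 bp) had 129 and 109.9 FPKM in Cd1, 1343, 2178 and 1686 FPKM in Cd2, 248, 222 and 275 FPKM in As1, 2132, 1898 and 1056 FPKM in As2, and 858, 590.1 and 1346 FPKM in CK. The 10 d libraries lay below all others here too, and the replicates of each 10 d group were close to each other. The gene rose by 3.82 ± 0.371 (SE) on the log2 scale in Cd2 vs. Cd1 (limma adjusted p = 0.000654) and by 2.71 ± 0.332 in As2 vs. As1 (limma adjusted p = 0.00117). For both genes, both calls held when any 1 of the 14 libraries was left out: the log2 fold change of CSS0047143 lay between 3.32 and 4.02 for Cd and between 3.41 and 4.27 for As, and that of CSS0006794 between 3.65 and 3.995 for Cd and between 2.51 and 3.02 for As. When the identical library was also kept under its Cd1 label, which puts a Cd2 library into Cd1, the Cd calls of both were lost (adjusted p = 0.935), and CSS0006794 also lost its As call (adjusted p = 0.0672).

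**Figure D4:**
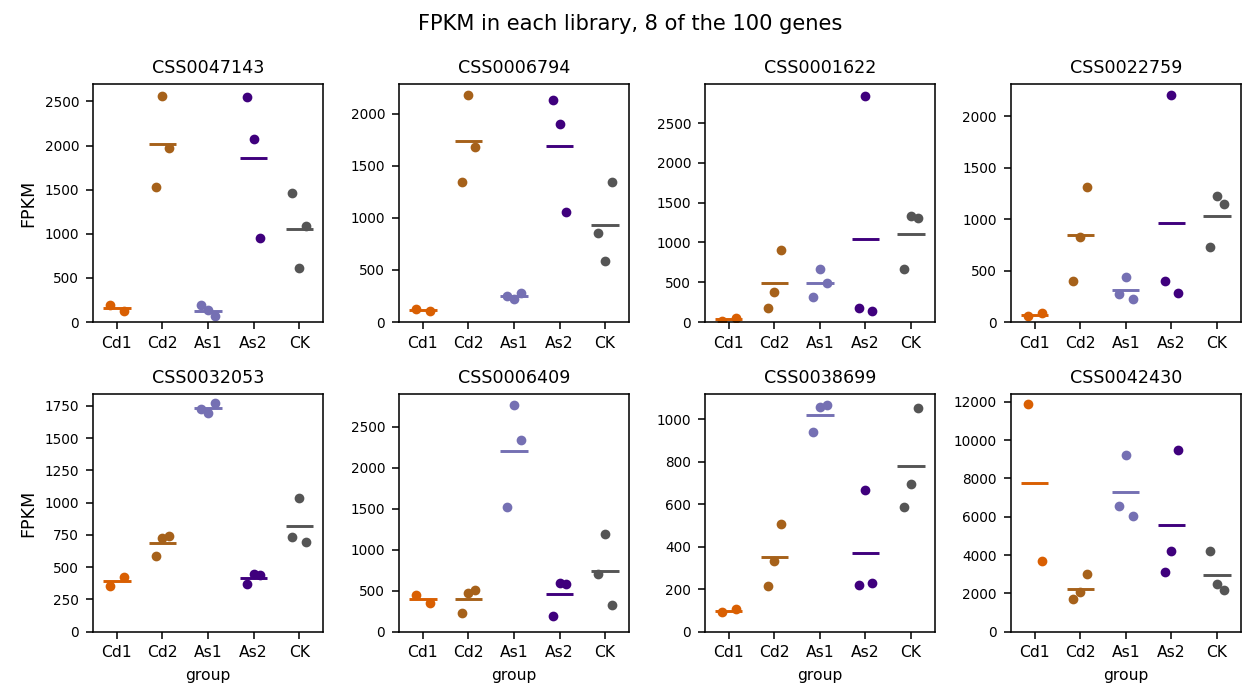
FPKM (linear axes that start at 0) in each library for 8 of the 100 members, by group (Cd1, Cd2, As1, As2, CK); points are libraries and lines are group means. CSS0047143 and CSS0006794 are low in both 10 d groups, CSS0001622 and CSS0022759 lowest in Cd1, and CSS0032053 between 1699 and 1771 FPKM in As1, above its other groups.

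The members that were lower at 15 d of As included CSS0032053 and CSS0006409, both of which were highest in As1. CSS0032053 (1441 bp) had 357 and 427 FPKM in Cd1, 589.8, 723 and 741 FPKM in Cd2, 1728, 1699 and 1771 FPKM in As1, 371, 445 and 436 FPKM in As2, and 732, 1035 and 693 FPKM in CK. The 3 As1 libraries lay above all others and within a narrow range. It fell by 2.05 ± 0.212 (SE) on the log2 scale in As2 vs. As1 (limma adjusted p = 0.000427), and by 2.15 ± 0.237 in Cd1 vs. As1 (limma adjusted p = 0.00183). Both calls held without any 1 of the 14 libraries, and that for Cd1 vs. As1 was lost when only those 2 groups were fitted (adjusted p = 0.0532). Against CK its log2 fold change was 1.10 in As1 and -1.05 in Cd1.

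CSS0006409 (1210 bp) had 449 and 348 FPKM in Cd1, 229, 472 and 504 FPKM in Cd2, 1515, 2768 and 2338 FPKM in As1, 198, 588 and 583 FPKM in As2, and 700.5, 1187 and 327 FPKM in CK. As1 again lay above all other libraries, with a wider spread. It fell by 2.39 ± 0.516 (SE) on the log2 scale in As2 vs. As1 (limma adjusted p = 0.0307), a call that was lost without As1 replicate 2 (adjusted p = 0.0944), As1 replicate 3 (0.0927) or As2 replicate 1 (0.129). It was also lost with no filter on low FPKM (adjusted p = 0.0568) and when only the 2 groups were fitted (0.0725). In Cd1 vs. As1 the log2 fold change of -2.43 did not pass the threshold (limma adjusted p = 0.0529).

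Cd1 vs. As1 set the metals side by side at 10 d. Of the members, 1 was higher and 6 were lower in Cd1, beside 0.468% of all tested genes called higher and 1.16% called lower (1.63% together). At an unadjusted p under 0.05 were 30 members, beside 18.5% of all genes. Beyond 2-fold were 29 members (10 higher, 19 lower), beside 11.4% of all genes, and the median was -0.36 in the members and 0.01 in all genes. The median stayed below 0 with quantile normalization, at -0.13. The count was 4 without CK replicate 2, Cd2 replicate 2 or As1 replicate 2, 3 without Cd1 replicate 1, As1 replicate 1 or As1 replicate 3, and 2 without Cd1 replicate 2. The next 100 genes of the CK ranking held 8 DEGs with a median of -0.39, and the genes with a mean of at least 10 FPKM a share of 2.70%.

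The largest falls in Cd1 relative to As1 among the members called were those of CSS0038699 and CSS0049942. CSS0038699 (926 bp) had 93.3 and 105 FPKM in Cd1, 217, 332 and 505 FPKM in Cd2, 938, 1057 and 1069 FPKM in As1, 218, 668 and 231 FPKM in As2, and 587, 696 and 1051 FPKM in CK. Both Cd1 libraries were the lowest of the 14. It fell by 3.35 ± 0.455 (SE) on the log2 scale in Cd1 vs. As1 (limma adjusted p = 0.00529), and the call held without any 1 library, with log2 fold changes between -3.44 and -3.27. In As2 vs. As1 it was also called lower, with a log2 fold change of -1.655 ± 0.407 (SE, limma adjusted p = 0.04985). That second call was kept in only 3 of 14 fits with 1 library left out and in 2 of 7 other settings. CSS0049942 (802 bp) had 62.2 and 87.6 FPKM in Cd1, 136, 332 and 554 FPKM in Cd2, 518, 853 and 755 FPKM in As1, 179, 933 and 194 FPKM in As2, and 356, 688 and 877 FPKM in CK. Cd1 was again lowest, and As2 replicate 2 was the highest library. It fell by 3.21 ± 0.690 (SE) on the log2 scale in Cd1 vs. As1 (limma adjusted p = 0.0377). That call was lost without CK replicate 2 (0.0541), Cd1 replicate 1 (0.138), Cd1 replicate 2 (0.135), Cd2 replicate 2 (0.0557), As1 replicate 1 (0.0661), As1 replicate 2 (0.0752) or As1 replicate 3 (0.106), and with no filter on low FPKM (0.0626) or quantile normalization (0.0523), all adjusted p.

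One member, CSS0011810 (761 bp), was higher in Cd1 than in As1. It had 999 and 670.2 FPKM in Cd1, 468, 356 and 524 FPKM in Cd2, 195, 378 and 126 FPKM in As1, 729, 650.2 and 812 FPKM in As2, and 1005, 572 and 433 FPKM in CK. Cd1 and As1 did not overlap, while the CK libraries spanned the Cd1 libraries. It rose by 1.96 ± 0.430 (SE) on the log2 scale (limma adjusted p = 0.0408), and the call was lost without CK replicate 2, either Cd1 replicate, any Cd2 replicate, As1 replicate 1, As1 replicate 3 or As2 replicate 3, with log2 fold changes between 1.59 and 2.38. It was also lost with the replicate number as a block (adjusted p = 0.0864), no filter on low FPKM (0.0686), the identical library left out under both labels (0.0589) and only the 2 groups fitted (0.117). In Cd2 vs. As2, limma called 0 members (0.00302% of all genes), with 19 at an unadjusted p under 0.05, beside 12.4% of all genes, and 12 beyond 2-fold (6 higher, 6 lower), beside 5.13%. The median there was -0.06 and turned to 0.18 with quantile normalization.

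The 22 calls in the comparisons between treated groups fell on 16 members, where 4.10% of all tested genes were called in at least 1 of these 4 comparisons. Apart from the pair called in both time comparisons, the members called higher at 15 d had log2 fold changes between 1.27 and 3.38 for Cd and between 1.76 and 2.40 for As. None of these calls held without each of the 14 libraries in turn. Under 7 other settings each call was kept in 3 (CSS0007762) to 5 for Cd, and in 5 to 7 for As. The members called lower in Cd1 than in As1 ranged between -3.35 and -1.52.

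The members also differed in how closely replicates agreed. Within CK, the ratio of the highest to the lowest library had a median of 1.78 over the members, with 43 members above 2 and 33 below 1.5. Over all 14 libraries the ratio had a median of 3.82, with 10 members below 2 and 19 above 10. The SD between replicates on the log2 scale had a median of 0.432 in the members and 0.373 in all tested genes. CK replicate 1 was the highest of the 3 CK libraries for 59 members, CK replicate 2 for 22 and CK replicate 3 for 19. As1 replicate 2, the library with the largest summed FPKM (896265), was the highest of all 14 for 29 members. The lowest value lay most often in Cd1, in replicate 2 for 20 members and in replicate 1 for 19, and in Cd2 replicate 1 for 15. Cd1 replicate 2 and Cd2 replicate 1 had the smallest summed FPKM (653581 and 669709), while Cd1 replicate 1 had 791541. No share of all tested genes was set beside these counts, so they are not read as a change of the members.

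The 3 genes that follow were picked with their spread in view. CSS0015704 (1874 bp) was the most even member, between 686 and 1128 FPKM over the 14 libraries, a ratio of 1.64. CSS0044367 (291 bp) was the least even, with 203 and 609 FPKM in Cd1, 246, 317 and 104 FPKM in Cd2, 62.0, 564 and 0.263 FPKM in As1, 22.8, 14.7 and 52.0 FPKM in As2, and 1657, 1630 and 17.7 FPKM in CK. Its CK libraries differed 93.6-fold, so its place in the list rested on CK replicates 1 and 2, and the As1 replicate 3 value was 1 fragment. CSS0002534 was placed likewise: it had 117 and 347 FPKM in Cd1, 116, 162 and 63.9 FPKM in Cd2, 55.3, 246 and 1.18 FPKM in As1, 11.6, 15.0 and 32.4 FPKM in As2, and 1164, 1064 and 65.3 FPKM in CK. All treated libraries of this gene lay below CK replicates 1 and 2, and CK replicate 3 lay among them. Neither gene passed the threshold in any comparison.

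**Figure D5:**
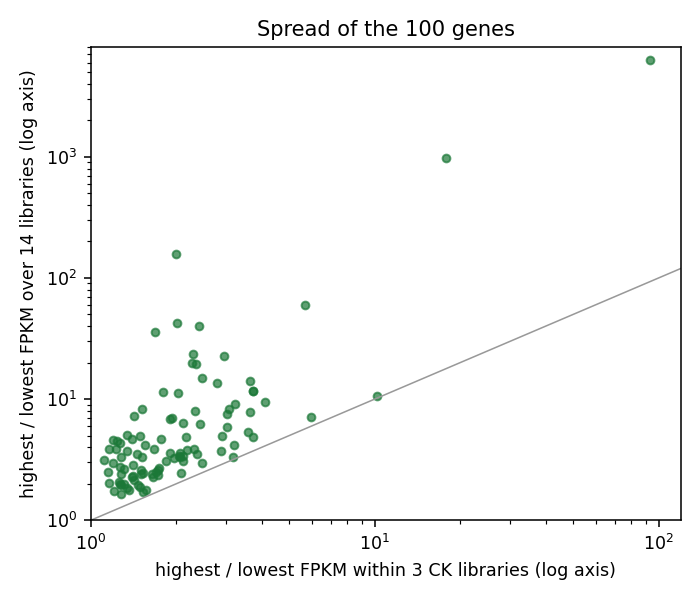
Ratio of the highest to the lowest FPKM over 14 libraries against the same ratio within the 3 CK libraries, for the 100 members (both axes log; the grey line marks equality). Most members lie at small ratios on the x axis, with a median of 1.78, and 1 point lies far to the right at 93.6.

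Some members varied in step over the libraries. These correlations are Pearson's r of log2 values over 14 libraries, which share groups and library-wide scaling, and they are given as description. CSS0020810 had r above 0.8 with 12 other members, among them CSS0041171 (r = 0.870), and r below 0 with 20. CSS0001622 had r above 0.8 with 9 members and below 0 with 32, and those most like it included CSS0032777 (r = 0.934), CSS0049942 (0.928), CSS0022759 (0.920) and CSS0038699 (0.844). Of those 9 members, 7 had both Cd1 libraries below the other 12, as 11 of all 100 members did, and 2 did not. CSS0001622 was itself named for its low values in Cd1, so members like it tend to be low there. No share of all tested genes was set beside these counts, and nothing is read from them. CSS0047143 had r above 0.8 with 6 members and below 0 with 57, and its r with CSS0006794 was 0.934.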

How the data were processed

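RNA of 15 root libraries was analysed from 1 table per library. After trimming, the authors aligned reads by HISAT (genome version not given in the sources used here), and the deposited values are FPKM per gene. A deposited annotation held 0 of the CSS identifiers and was not used. Whole fragments and gene lengths were recovered from the FPKM steps (length within 0.05 bp of a whole number for 98.6% of 46517 genes above 0). They gave the depth, the lengths, and the shares and ranking by fragments, and entered no test. The fragments came to between 10483112 and 13846717 per library.

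The fit was limma 3.58.1 in R 4.3.3 (trend, all 5 groups) on log2(FPKM + 1), which understates changes of low genes, over 33109 genes with at least 1 FPKM in at least 3 libraries, with Benjamini-Hochberg adjustment over all of them. DEGs had FDR under 0.05 and an absolute log2 fold change over 1. These limits are the study's, but the test is not: the study names other tools than limma. Relative to CK, limma called 1053 genes for Cd1, 11 for Cd2, 535 for As1 and 5 for As2. The study reported more DEGs in each of these comparisons, so few calls here do not describe its result. The script was tested on simulated data. Tables used Python 3.11.15, numpy 2.4.6 and pandas 2.3.3, and plots matplotlib 3.10.9.

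Named genes were the first 5 members, up to 2 per direction and comparison with the largest change among DEGs, and the 3 on either side of the limit. The members, lists and tests were chosen with earlier results of these data known. Pseudocount, filter, normalization, replicate block, the identical library, the groups fitted, list size (50 or 200 genes) and each library left out in turn were varied.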

Additional observations from a re-analysis of the deposited data

Results flagged for a closer look

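For 7 members the change against CK in Cd1 differed from that in As1, by the direct test of Cd1 vs. As1 with limma. The difference (Cd1 minus As1, log2) was -3.35 for CSS0038699, -3.21 for CSS0049942, -2.99 for CSS0032777, -2.15 for CSS0032053, -2.01 for CSS0007762, -1.52 for CSS0029123 and 1.96 for CSS0011810. CSS0032053 was lower than CK in both Cd1 libraries and higher in all 3 As1 libraries. CSS0011810 was below all 3 CK libraries in As1, at 195, 378 and 126 FPKM. The calls of CSS0038699 and CSS0032053 held without any 1 library. That of CSS0007762 was lost without Cd1 replicate 2 (limma adjusted p = 0.0838), and that of CSS0029123 without Cd1 replicate 1 (0.0659), Cd1 replicate 2 (0.179), As1 replicate 1 (0.0579), As1 replicate 2 (0.0608) or As1 replicate 3 (0.0901). Those of CSS0049942, CSS0032777 and CSS0011810 were lost without 1 of several libraries, as given with their values above. Under 7 other settings the call of CSS0029123 was kept in 4 and that of CSS0007762 in 7.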

How the results depend on the processing

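The counts of members called moved with the settings, while the direction of the 27 calls followed singly did not. Such counts under other settings, here and above, are of members alone, with no share of all genes under the same setting beside them. With no filter on low FPKM, which adjusts over more genes, the counts relative to CK were 7 for Cd1 and 3 for As1, and the others were 3 for Cd2 vs. Cd1, 4 for As2 vs. As1 and 3 for Cd1 vs. As1. Quantile normalization gave 8 for As1 vs. CK and 11 for Cd2 vs. Cd1. With the identical library kept under both labels the counts relative to CK were 2 for Cd1 and 3 for As1, and limma called 0 in Cd2 vs. Cd1, the last with 19 members at an unadjusted p under 0.05. Fitting only the 2 groups compared gave 2 for As1 vs. CK and 5 for As2 vs. As1. Leaving out 1 library gave, relative to CK, 3 to 15 members for Cd1, 2 to 9 for As1 and 0 for Cd2 and for As2, and otherwise 2 to 9 for Cd2 vs. Cd1, 3 to 10 for As2 vs. As1, 2 to 10 for Cd1 vs. As1 and 0 for Cd2 vs. As2. A group left with 1 library is then assumed to vary like the others. Over 27 calls of single members (those between treated groups and those of the named genes), 420 of 567 values under the alternatives kept the call, 147 lost it and 0 reversed. Many of these could not reverse. Leaving out a library of neither group, dropping the filter or fitting only the 2 groups leaves the log2 fold change unchanged.

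With 50 genes the members held 10.95% of the summed FPKM in Cd1, 9.90% for Cd2, 10.06% for As1, 11.58% for As2 and 10.74% for CK, and with 200 genes 20.31%, 18.67%, 20.63%, 21.26% and 20.89% in the same order. Of 50 genes, 31 kept a place for Cd1, 42 for Cd2, 32 for As1 and 38 for As2, and of 200 genes 130, 162, 148 and 161 did. Without 1 library, the share of the 100 lay between 13.47% and 16.46% in Cd1, 12.77% and 14.01% in Cd2, 13.51% and 15.35% in As1, 14.82% and 16.43% in As2, and 14.22% and 16.08% in CK. The number retained then lay between 56 and 66 for Cd1, 65 and 74 for Cd2, 66 and 69 for As1, and 61 and 77 for As2.

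With the replicate number as a block, 33 calls were made against 40 without it, 32 of them in both fits: 9 for Cd1 and 5 for As1 relative to CK, 5 for Cd2 vs. Cd1, 9 for As2 vs. As1, 5 for Cd1 vs. As1 and 0 for the other 3. Whether the numbers pair the samples could not be told from the values, since deviations within groups of 2 or 3 libraries are tied together. Same-numbered libraries had correlations of these deviations between -0.311 and 0.278 over 26 pairs, 4 of them over 0.1. Of the 14 libraries, 3 correlated best with their own number. Of the members' values, 5 rested on under 100 fragments, and 2 or 3 libraries per group limit every test.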
